A study of Mus musculus with 3 samples.

Results

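The YAP and TEAD pathway was represented by 10 genes, chosen by name from the 55471 features of the deposited expression table, and each had a single row there. They were the transcriptional co-activators Yap1 and Wwtr1 (the gene of TAZ), the DNA-binding partners Tead1 and Tead4, the target genes Ccn1, Ccn2 and Ankrd1, and Ajuba, Amotl2 and Lats2, which encode regulators of the pathway. RNA was measured in 3 populations of JC, a mouse mammary carcinoma line grown in culture, with 1 polyadenylated-RNA library each, all under the genotype label WT. JC-WT is the unselected line, as far as its label WT says. JC-P was recovered from tumours of the mammary fat pad at day 14. JC-M3 came out of 3 rounds of tail vein injection (500000 cells) and recovery of lung metastases at day 28, starting from cells derived from JC-P. The treatment label of JC-P also reads metastasis, so its fat pad origin rests on the protocol. The sources used here do not give the host strain or the number of animals or clones behind a population.

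With 1 library per population no difference could be tested or checked in a replicate, and each one describes a pair of libraries. Between 18093400 and 23386400 assigned reads per library were recovered from the deposited values, and mitochondrial transcripts took 4.51% to 5.46% of the TPM. TPM is an abundance per gene length, scaled to a fixed total per library. Levels of different genes can be set side by side as far as the length used matches the transcripts expressed. A gene counted as measured at a mean of at least 1 TPM, which held for 14527 features and for all 10 pathway genes. Levels are given in the order JC-WT, JC-P, JC-M3 unless a library is named. JC-P against JC-WT is called the fat pad step, JC-M3 against JC-P the lung step and JC-M3 against JC-WT the full course. Intervals are 95% counting intervals and leave out variation between cultures; those printed beside a log2 ratio belong to the plain TPM ratio, without a pseudocount. Of 12 epithelial markers fixed as a check of the epithelial-like label, 3 were measured, and the 12 summed to 1555, 1923 and 702 TPM. Krt8 stood at 1503, 1873 and 681 TPM, Krt18 at 48.6, 48.5 and 18.4 TPM and Krt7 at 1.74, 0.58 and 1.70 TPM. Krt8 and Krt18 were thus lowest in JC-M3. Cdh1 had 0, 25 and 21 reads, and Krt19, Krt14, Esrp1, Cldn3 and Cldn4 had no more than 3 reads in any library. Epcam and Cldn7 had 0 reads in all 3 libraries. Fibroblast markers summed to 222, 418 and 1093 TPM, with 7 of 9 measured and Lum and Thy1 at 0 reads. Col1a1 carried that sum at 132, 261 and 949 TPM. Dcn (1.24, 14.0 and 22.5 TPM), Pdgfrb (48.7, 46.5 and 87.9 TPM) and Col1a2 (0.25, 0.66 and 4.40 TPM) were also higher in JC-M3 than in JC-P. Col3a1 (3.99, 46.0 and 8.76 TPM), Pdgfra (34.1, 47.6 and 20.1 TPM) and Dpt (2.27, 2.12 and 0.25 TPM) were lower in JC-M3 than in JC-P. Endothelial markers summed to 277, 304 and 279 TPM, with 4 of 12 measured and Kdr and Cldn5 at 0 reads. Eng made up nearly all of that sum at 265 to 273 TPM, and JC-P stood apart in Cdh5 (0.089, 17.7 and 0.10 TPM, from 2, 490 and 3 reads) and in Plvap (7.60, 17.8 and 2.71 TPM). Of 6 pericyte and smooth muscle markers 2 were measured, and their sum of 22.2, 8.57 and 648 TPM was nearly all Acta2 in JC-M3. Myeloid markers summed to 7.30 to 13.0 TPM, with Ptprc and Adgre1 at 0 reads. Bulk RNA cannot tell fewer cells of a type from less RNA per cell, and the part of these marker levels in the results on the pathway was not tested.

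In the Hippo pathway the kinases Lats1 and Lats2 phosphorylate YAP and TAZ, which holds them in the cytoplasm or sends them to degradation. When that phosphorylation is low, YAP and TAZ enter the nucleus and activate genes through the TEAD proteins, which bind DNA. Ccn1, Ccn2 and Ankrd1 are widely used readouts of that activity, and Amotl2 and Lats2 are targets that also feed back to restrain it. The activity of YAP and TAZ is set mainly by their localization and stability, which RNA levels do not show.

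TEAD proteins recognise the letters GGAATG, which read CATTCC on the other strand. RefSeq promoters on GRCm38.p6 span 250 bases before to 50 after a start and were matched for 7 of the 10 genes in 9 entries. Of these entries 8, from all 7 genes, held the motif on either strand. The 2 Wwtr1 entries overlap and hold the same motif, which is therefore counted in both. Of all 32851 promoters 14.7% held the motif, and of the 11992 promoters of measured genes 12.2%. The AP-1 motif TGANTCA and the SRF CArG box, searched on both strands, were in none of the 9 entries, against 7.81% and 1.63% of all promoters, so no TEAD match overlapped either. The motif with its flanks is printed for each of the 7 genes because these 7 genes have it in common. Each line runs 5′ to 3′ on the strand of the gene, capitals mark the motif, and positions are counted from the RefSeq start of transcription.
Ccn1: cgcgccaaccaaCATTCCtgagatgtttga
Ankrd1 (distal): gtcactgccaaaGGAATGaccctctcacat
Ankrd1 (proximal): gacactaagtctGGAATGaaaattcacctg
Ajuba (distal): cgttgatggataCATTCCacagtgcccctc
Ajuba (proximal): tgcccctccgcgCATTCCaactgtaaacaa
Amotl2: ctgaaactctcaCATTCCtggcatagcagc
Yap1: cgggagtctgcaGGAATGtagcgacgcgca
Wwtr1: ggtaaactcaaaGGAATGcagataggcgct
Lats2: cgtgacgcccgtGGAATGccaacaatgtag

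The Ccn1 window lies at chr3:145650071-145650100 on the minus strand, with the first base of the motif at -103. Ankrd1 and Ajuba each held 2 motifs, at -210 and -123 for Ankrd1 (windows chr19:36120037-36120066 and chr19:36119950-36119979) and at -186 and -164 for Ajuba (chr14:54577830-54577859 and chr14:54577808-54577837), all on the minus strand. Both Ankrd1 windows lie wholly in annotated exons of GENCODE M21, inside the span of the gene. The motif of Amotl2 began at -65 (chr9:102717727-102717756, plus strand, with a RefSeq start inside the GENCODE span of the gene and the window in exons), that of Yap1 at -141 (chr9:8004720-8004749, minus strand) and that of Wwtr1 at -136 from the first of its 2 starts (chr3:57576029-57576058, minus strand). The Lats2 motif lay downstream of the first of its 2 starts, at 5 (chr14:57746102-57746131, minus strand, also inside the GENCODE span, with 22 of the 30 bases in exons), and the entry of the other start held none. The RefSeq start of Ajuba lies upstream of its GENCODE span. The 250 bases before the Ccn1 start are given whole, since Ccn1 differed most between the libraries; they lie at chr3:145649986-145650235 on the minus strand, outside annotated exons.
Ccn1 promoter: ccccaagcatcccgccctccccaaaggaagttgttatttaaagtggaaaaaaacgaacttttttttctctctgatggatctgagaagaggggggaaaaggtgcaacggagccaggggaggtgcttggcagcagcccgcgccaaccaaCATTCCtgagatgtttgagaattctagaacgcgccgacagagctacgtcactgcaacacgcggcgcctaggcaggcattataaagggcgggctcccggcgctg

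A motif match is a description of letters and shows no binding. The RefSeq table had no entry for Ccn2, Tead1 and Tead4.

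The genes with the widest spans across the 3 populations were targets of the pathway. Ccn1, Ccn2 and Amotl2 had a highest library at least 2-fold over the lowest. The other 7 genes stayed within 2-fold, the targets Ankrd1 and Lats2 as well as Ajuba, Yap1, Wwtr1, Tead1 and Tead4. Ankrd1 spanned 1.69-fold and Tead4 1.67-fold. Of all measured features 17.0% spanned 2-fold. JC-M3 was the highest library for 9 of the 10 genes, Tead4 being the exception, and for 35.3% of all measured features. For 6 genes, Ccn1, Ccn2, Ajuba, Amotl2, Yap1 and Lats2, JC-P was the lowest and JC-M3 the highest, an order that 15.9% of measured features had. For Yap1 and Lats2 the differences behind that order were small, as the values below show.

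**Figure D1:**
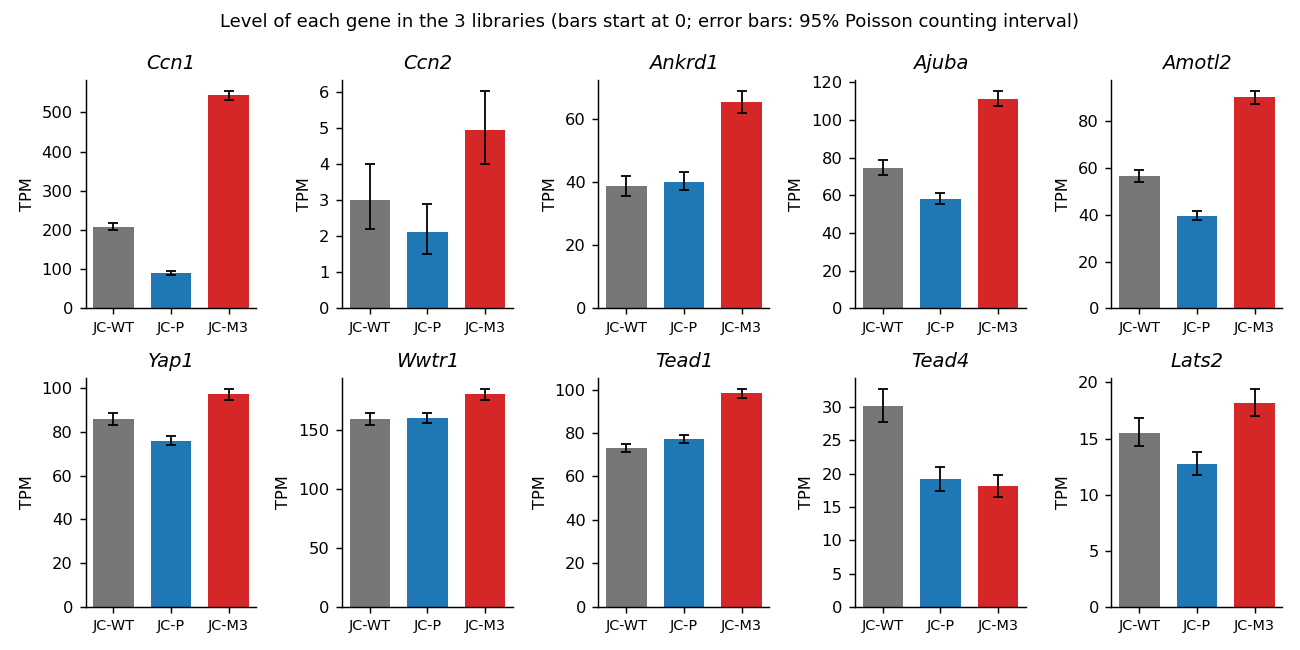
TPM (y axis, from 0) of each of the 10 genes in each library (x axis); bars are 1 library each and error bars the 95% Poisson counting interval. Ccn1 spans 89.4 to 543 TPM, while Wwtr1 stays between 159 and 180 TPM and Tead4 is highest in JC-WT.

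Ccn1 encodes a secreted matricellular protein that binds integrins and is also induced quickly by serum and stretch. It stood at 208, 89.4 and 543 TPM, from 2259, 1186 and 7518 reads. JC-P was low and JC-M3 high, and the counting intervals of the 3 levels did not overlap. On the scale of log2(TPM + 0.5), used for all ratios here, the fat pad step was -1.22 (-1.32 to -1.12), the lung step 2.60 (2.51 to 2.69) and the full course 1.38 (1.31 to 1.45). Among the levels of measured features its percentile was 94.5, 85.7 and 98.4. None of its 50-base transcript windows occurs in another annotated gene.

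Ccn2, the close relative of Ccn1 and a profibrotic matrix protein gene, was scarcely expressed. It stood at 3.00, 2.13 and 4.94 TPM, from 46, 40 and 97 reads. JC-M3 was the high library, and the counting intervals of JC-WT and JC-P, the latter at 1.52 to 2.90 TPM, overlapped. The lung step was 1.05 (0.67 to 1.79); it was 0.75 with a pseudocount of 2 and 0.83 with chromosome medians subtracted, both within 2-fold. The fat pad step was -0.41, with an interval of -1.14 to 0.15 that includes no change. Ccn1 exceeded Ccn2 in TPM 69.6-, 42.0- and 109.8-fold. Of the Ccn2 windows, 17.2% also occur in other annotated genes. Gm15270, which overlaps it on the opposite strand, had 0, 5 and 3 reads.

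Ankrd1, a nuclear and sarcomeric ankyrin repeat protein gene, had a different course. It stood at 38.6, 40.1 and 65.3 TPM. For the fat pad step the log2 ratio was 0.05, with an interval of -0.10 to 0.21 that includes no change, and for the lung step it was 0.69 (0.57 to 0.83), so JC-M3 was the high library. Amotl2, an angiomotin family scaffold that binds YAP at junctions, stood at 56.6, 39.5 and 90.0 TPM. Its log2 ratio was -0.51 (-0.61 to -0.42) for the fat pad step and 1.18 (1.10 to 1.27) for the lung step, with the signs of Ccn1 and smaller sizes. Ajuba, a LIM protein gene whose product can inhibit LATS kinases, stood at 74.7, 58.1 and 111 TPM. Its log2 ratio for the lung step was 0.93 (0.84 to 1.03), just within 2-fold, and 1.19 with chromosome medians subtracted.

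Lats2, the kinase gene, stood at 15.5, 12.7 and 18.2 TPM. Its log2 ratios were -0.27 (-0.45 to -0.12) for the fat pad step and 0.49 (0.36 to 0.67) for the lung step. Its level is uncertain, because 41.2% of its transcript windows also occur in other annotated genes. Gm49361, a protein-coding gene that overlaps it on the same strand, is listed at 0 in every library.

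Yap1 stood at 85.9, 75.9 and 97.1 TPM, and Wwtr1 at 159, 160.4 and 180.3 TPM. The widest ratios among the comparisons were 0.35 (0.30 to 0.41) for Yap1, the lung step, and 0.18 (0.12 to 0.24) for Wwtr1, the full course. With chromosome medians subtracted the sign for Wwtr1 turned, to -0.13 for the full course and -0.08 for the lung step. Wwtr1 made up 65.0%, 67.9% and 65.0% of the summed TPM of the pair. The reads of the pair were close, at 4266, 4620 and 6167 for Yap1 and 4090, 5038 and 5913 for Wwtr1. The TPM difference therefore rests mostly on the merged exon lengths, 9257 bases for Yap1 and 4779 for Wwtr1. Whether those lengths match the transcripts expressed was not tested.

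The TEAD genes differed in direction: for the full course Tead1 alone was higher, while Tead2, Tead3 and Tead4 were lower. Tead1 stood at 73.0, 77.1 and 98.3 TPM, with a ratio of 0.43 (0.38 to 0.48) for the full course. Tead4 stood at 30.2, 19.2 and 18.1 TPM, high in JC-WT, with overlapping intervals for JC-P and JC-M3 and a ratio of -0.72 (-0.92 to -0.56) for the full course. Tead2, outside the 10, stood at 60.6, 48.5 and 28.2 TPM, a ratio of -1.09 (-1.22 to -0.99) for the full course. Tead3, also outside the 10, stood at 8.33, 9.20 and 5.99 TPM, with a ratio of -0.44 (-0.72 to -0.23). The summed level of Tead1 to Tead4 was 172, 154 and 151 TPM, and within it the share of Tead1 was 42.4%, 50.1% and 65.3%, while the share of Tead2 was 35.2%, 31.5% and 18.7%. Tead1 was the most abundant TEAD gene in every library.

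**Figure D2:**
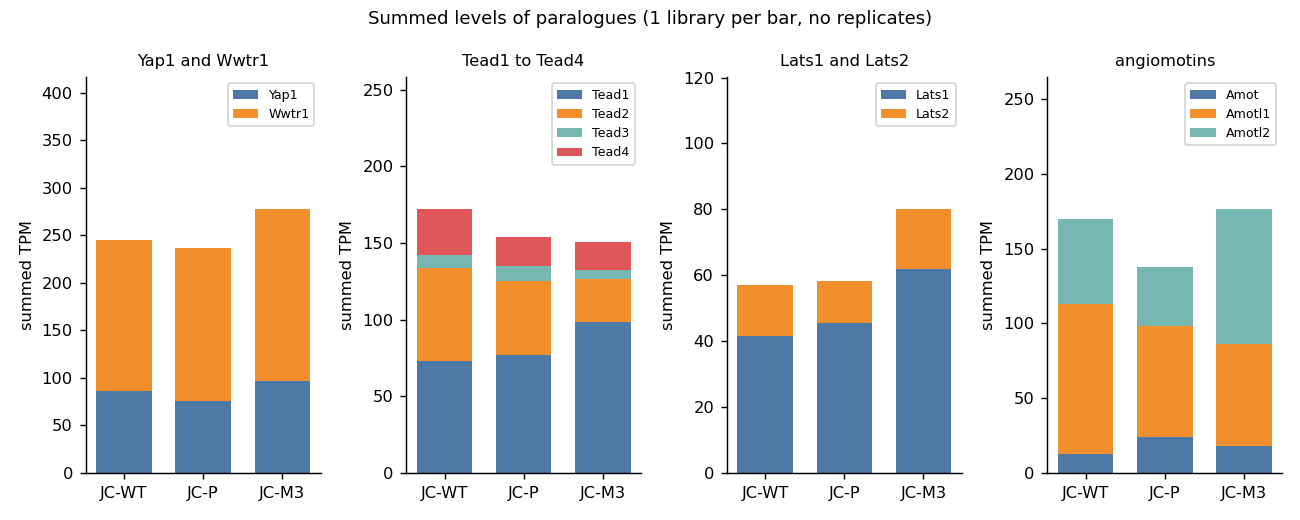
Summed TPM (y axis, from 0) of 4 groups of paralogues in each library (x axis), coloured by gene, 1 library per bar. Tead1 makes up 65.3% of the summed TEAD TPM in JC-M3 and 42.4% in JC-WT, where the sums are 151 and 172 TPM. Amotl2 makes up 51.0% of the summed angiomotin TPM in JC-M3.

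The fat pad step had 1 of the 10 genes at least 2-fold lower (Ccn1; 2.33% of measured features) and 0 at least 2-fold higher (4.76%). The median over the 10 was -0.32, against 0.010 over all measured features, and 7 of the 10 were below 0 (49.0% of measured features). The counting interval lay wholly below no change for 6 genes (28.3% of measured features) and above it for Tead1 alone (27.1%). The lung step had 3 genes at least 2-fold higher, Ccn1, Amotl2 and Ccn2 (3.82% of measured features), and 0 lower (5.38%), with a median of 0.59 against -0.0076 and 9 of the 10 above 0 (49.2%). Intervals lay wholly above no change for 9 of the 10 (29.5%) and below it for 0 (30.1%). The full course had Ccn1 alone at least 2-fold higher (6.14%) and 0 lower (5.27%), with a median of 0.50 against 0.0016. Intervals lay above no change for 9 genes (29.4%) and below it for 1, Tead4 (30.6%). The comparisons share libraries, so a low value in JC-P enters the first and the second with opposite signs.

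**Figure D3:**
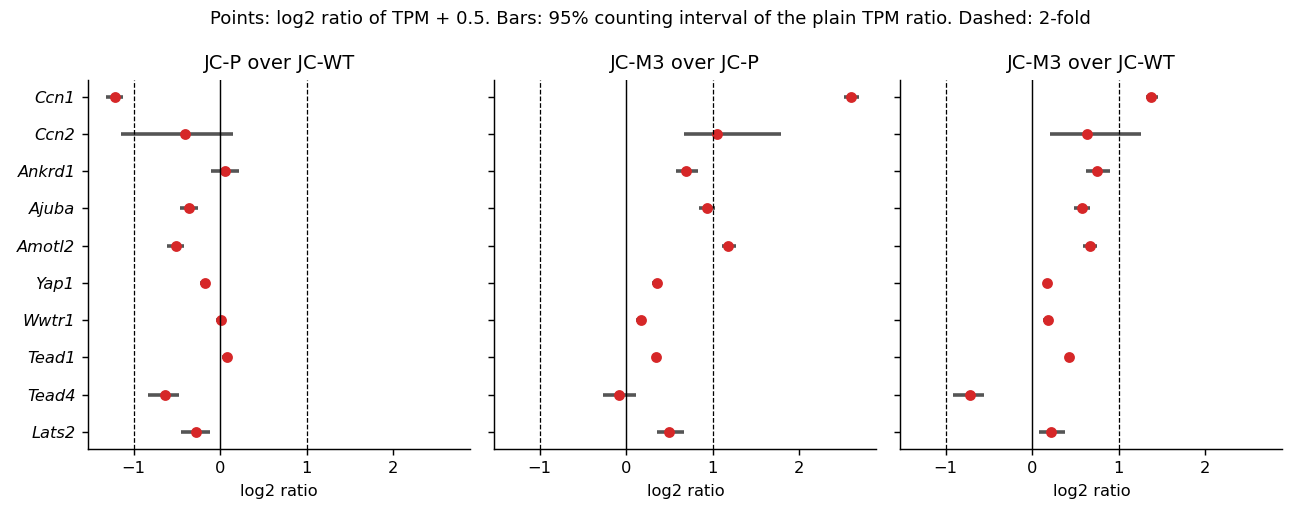
log2 ratio of TPM + 0.5 (points, x axis) of each gene (y axis) in the 3 comparisons, with the 95% counting interval of the plain TPM ratio (bars) and dashed lines at 2-fold. In JC-M3 over JC-P, Ccn1 at 2.60, Amotl2 at 1.18 and Ccn2 at 1.05 pass 2-fold, and Tead4 at -0.08 is the only point below 0.

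Other target genes were taken from a signature of 22 YAP and TAZ targets listed from general knowledge, of which 17 are outside the 10 and 16 of those were measured. They did not all share one direction. For the lung step 3 genes passed 2-fold upward (3.82% of measured features) and 1 downward (5.38%), and 12 stayed between, with a median of 0.30. Tgfb2, a TGF-beta ligand gene, stood at 0.74, 0.53 and 3.73 TPM (23, 20 and 148 reads). It reached a mean of 1 TPM only through JC-M3, where it is high, so the filter admits it for its difference; without it 2 of 15 genes passed 2-fold upward and 1 downward for the lung step, with a median of 0.25. Crim1, a transmembrane BMP-binding protein gene, stood at 35.4, 25.0 and 71.6 TPM with JC-P low and JC-M3 high, as for Ccn1. Nuak2, a kinase gene, stood at 3.14, 3.65 and 8.22 TPM. In the other direction Nt5e, the ectonucleotidase CD73, stood at 19.9, 18.6 and 8.96 TPM. Axl, a receptor tyrosine kinase and the most abundant of the list, stood at 742, 739 and 947 TPM, a ratio of 0.36 (0.33 to 0.38) for the lung step. For the fat pad step the 16 had 1 gene at least 2-fold higher (4.76% of measured features), 0 lower (2.33%) and a median of -0.12. The higher gene was the matrix gene Ccdc80 (2.56 TPM in JC-WT and 7.73 in JC-P). For the full course 4 were higher, or 3 without Tgfb2 (6.14% of measured features), 1 was lower (5.27%) and the median was 0.07. The order JC-P, JC-WT, JC-M3 held for 5 of the 16 (15.9% of measured features).

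**Figure D4:**
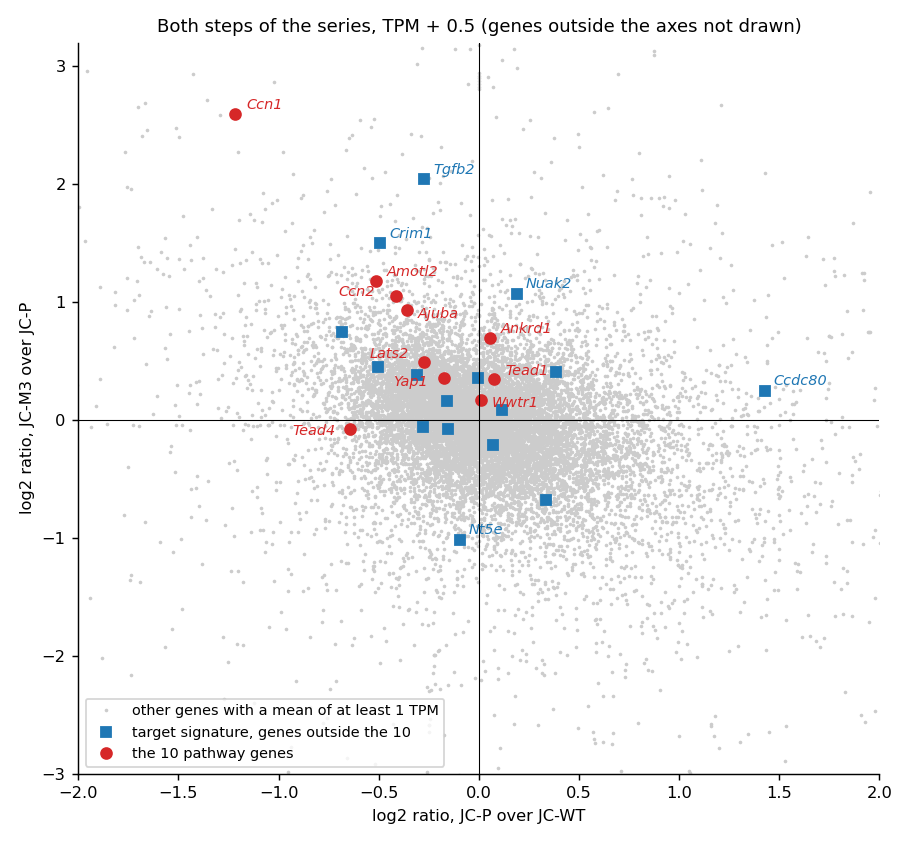
log2 ratio of JC-P over JC-WT (x axis) against JC-M3 over JC-P (y axis), both of TPM + 0.5, for the 10 pathway genes (red), the other target genes (blue) and all other measured features (grey); JC-P is in both axes. Ccn1 lies at -1.22 and 2.60, Crim1 and Tgfb2 lie in the same quadrant, and Nt5e and Ccdc80 lie apart.

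Other genes of the pathway were compared in the same way. Of the 10 measured genes of the kinase core other than Lats2, 0 were at least 2-fold higher or lower in any of the 3 comparisons. Their medians were 0.11, 0.038 and 0.19 for the fat pad step, the lung step and the full course. In the same order, 4.76%, 3.82% and 6.14% of measured features were at least 2-fold higher and 2.33%, 5.38% and 5.27% lower. A count of 0 among 10 genes is near these shares, so it does not set the kinase core apart. Lats1 stood at 41.6, 45.5 and 61.9 TPM and made up 72.8% to 78.1% of the summed Lats1 and Lats2 level. Of 15 measured upstream regulators other than Ajuba and Amotl2, 2 were at least 2-fold higher for the lung step (3.82%) and 0 lower (5.38%). For the fat pad step 1 was lower (2.33%). Fat4, an atypical cadherin gene, stood at 1.93, 0.35 and 9.99 TPM (178, 39 and 1176 reads), a ratio of 3.63 for the lung step whose plain interval was 4.39 to 5.35, since the added pseudocount shrinks low values. Wwc1, the scaffold gene of KIBRA, stood at 4.36, 2.58 and 8.55 TPM. Among the angiomotins Amotl2 stood at 33.4%, 28.7% and 51.0% of their summed TPM and Amotl1 at 59.3%, 53.7% and 38.7%, while Amot stood at 12.4, 24.3 and 18.1 TPM. Vgll3, a TEAD cofactor gene, stood at 33.6, 24.8 and 50.1 TPM, and Vgll4, which encodes a competitor of YAP for TEAD, at 50.4, 38.3 and 35.3 TPM.

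Some CCN and SRF target genes are known to be controlled by serum and actin dynamics as well. Ccn4 stood at 12.1, 24.5 and 66.6 TPM, and Ccn3 at 4.03, 1.91 and 5.44 TPM (62, 36 and 107 reads). Of 5 measured CCN genes 4, with Ccn1 and Ccn2 among them, were at least 2-fold higher for the lung step (3.82% of measured features). Only Ccn5 (2.69 TPM in JC-P and 2.12 in JC-M3) was not. The count of 4 rests in part on the low reads of Ccn2 and Ccn3, and Ccn2 was at 0.75 with a pseudocount of 2. Of 15 measured SRF targets, 13 were below 0 for the fat pad step (49.0% of measured features), of which 2 at least 2-fold (2.33%). For the lung step 14 were above 0 (49.2%), of which 4 at least 2-fold (3.82%), Myl9, Acta2, Actg2 and Tagln. Actg2 and Tagln reached a mean of 1 TPM only through JC-M3, where they are high. Without them 11 of 13 were below 0 for the fat pad step, 1 at least 2-fold, and 12 above 0 for the lung step, 2 at least 2-fold. Acta2, smooth muscle actin, stood at 16.5, 2.22 and 642 TPM and Myl9, a myosin light chain gene, at 2.08, 1.31 and 444 TPM. The medians over the 15 were -0.31, 0.45 and, for the full course, 0.22. Srf itself stood at 67.8, 49.97 and 68.6 TPM. Of 10 measured immediate early and stress genes 8 were above 0 for the lung step (49.2%) and 1 at least 2-fold (3.82%), Btg2 (2.77 TPM in JC-P and 6.96 in JC-M3), with a median of 0.45, while for the fat pad step their median was -0.30. For the full course 4 of these genes were above 0 and 6 below, with a median of -0.25. Egr1 stood at 15.3, 10.9 and 16.2 TPM, and Ier3, lower in JC-M3 than in JC-WT, at 333, 216 and 242 TPM. The part of serum, handling or cell density in the levels of Ccn1 and the other target genes was not tested.

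Genes near a pathway gene on the chromosome were compared to show how far its difference was shared locally. Around Ccn1 (chromosome 3, 145646976 to 145649981, GRCm38) the 12 measured protein-coding genes within 1 Mb had a median of 0.37 for the lung step, against 2.60 for Ccn1, and Ddah1 alone, at 4.20 TPM in JC-P and 45.7 in JC-M3, was above it. For the fat pad step Ccn1 was below all 12. Ajuba (chromosome 14, 54567472 to 54577558) was above all 27 of its neighbours for the lung step, which had a median of -0.22. Amotl2 (chromosome 9, 102716672 to 102733418) was above all 8, with a median of -0.0034, Lats2 (chromosome 14, 57689662 to 57758388) above all 13, and Tead1 (chromosome 7, 112679318 to 112906807) above all 6. Ccn2 (chromosome 10, 24595442 to 24598683) was above 5 of 6 and Ankrd1 (chromosome 19, 36111961 to 36120099) above 5 of 7. Wwtr1 (chromosome 3, 57455649 to 57575910) had 6 of 7 neighbours above it, and their median of 0.27 was close to that of chromosome 3 (0.25). Yap1 (chromosome 9, 7931999 to 8004596) had 9 of 10 neighbours below it, among them the matrix metalloproteinase genes Mmp3 (414 TPM in JC-P and 42.5 in JC-M3) and Mmp10 (32.3 and 3.47 TPM). The apoptosis inhibitor genes Birc2 and Birc3, next to Yap1, stood at 29.1, 28.7 and 34.0 TPM and at 12.5, 16.1 and 19.7 TPM. Tead4 (chromosome 6, 128224288 to 128300823) lay below 8 of 11 neighbours for the full course, whose median was -0.52. In that comparison Ccn2, at 0.64, was above 3 of its 6 neighbours, and their median was 0.63. Ankrd1, at 0.75, was above 5 of its 7, with a median of 0.51.

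**Figure D5:**
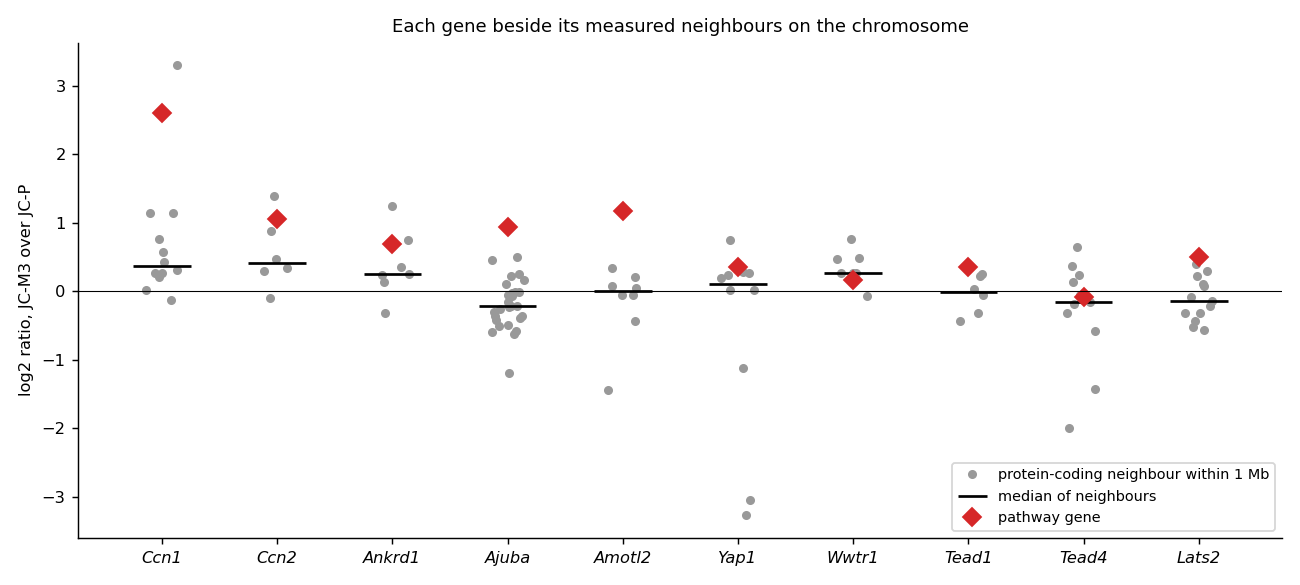
log2 ratio of JC-M3 over JC-P (y axis) for each pathway gene (red diamond) and its measured protein-coding neighbours within 1 Mb (grey points, black line at their median). Ajuba, Amotl2, Lats2 and Tead1 lie above all their neighbours, and Wwtr1 lies below its neighbours' median of 0.27.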

How the data were processed

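RNA-seq of 3 libraries, 1 per population, was used as deposited. The authors' TPM values, named so in the file headers, sum to nearly the same fixed total in each library. Per the submitters' processing notes, STAR 2.7.9a, featureCounts and FastQC 0.11.9 were used with mm10 or GRCm38. Strand setting and annotation release were not given in the sources used here, so reads of antisense partners may not be separated. Ratios are log2 of TPM + 0.5 among features averaging 1 TPM or more; a gene was called at 2-fold, with no test. Multiplying TPM by GENCODE M21 merged exon length (55230 features) gave whole reads, within 0.01 of a read, for 98.4%, 98.5% and 98.5% of expressed features (JC-WT, JC-P, JC-M3). These gave exact Poisson intervals of levels and exact conditional (Clopper-Pearson) 95% intervals of TPM ratios, which cover counting error only. Recovery and intervals were tested on simulated data. The 10 genes, the lists and the alternatives were chosen with earlier results of these data known. Named genes were the 10, in each comparison the 2 measured genes with the top and the 2 with the bottom ratios of every other list, and the 3 nearest patterns of Ccn1, Ccn2 and Ankrd1. Axl, Crim1, Nuak2, Vgll4, Srf, Tagln and Egr1, the markers and the chromosomal neighbours named fall outside that rule and were chosen after their values were seen. Promoters came from RefSeq (GRCm38.p6). Alternatives changed the pseudocount, scaling, expression filter, threshold and chromosome medians. The software was Python 3.11.15, scipy 1.17.1, numpy 2.4.6, matplotlib 3.10.9 and pandas 2.3.3.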

Additional observations from a re-analysis of the deposited data

How the results depend on the processing

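At 2-fold, 1, 3 and 1 of the 10 genes were called for the fat pad step, the lung step and the full course. With a threshold of 1.5-fold, 2, 5 and 5 were called, and with 3-fold 0, 1 and 0. In the same order, 11.96%, 10.02% and 14.04% of measured features were at least 1.5-fold higher and 6.904%, 13.31% and 12.48% lower. For 3-fold, 1.95%, 1.51% and 2.63% were higher and 0.91%, 2.11% and 2.196% lower. Pseudocounts of 0.1 and 2, both other scalings, subtraction of chromosome medians and filters at 10 TPM or none kept the 2-fold counts of the 10 genes within 1.5 times. With chromosome medians subtracted the 3 genes for the lung step were Ccn1 (2.34), Ajuba (1.19) and Amotl2, and Ccn2 was at 0.83. With a mean of at least 10 TPM, 9 genes were measured and Ccn2 was left out. The order JC-P, JC-WT, JC-M3, a count added after seeing the data, held for 6 genes under every setting except the 10 TPM filter (5 of 9). No scaling moved the median of all features by over 0.1. Low depth limits Ccn2, with 40 to 97 reads per library. No paired analysis was possible because each population had 1 library.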

Other observations

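The 7 AP-1 factor genes listed, whose products often bind beside TEAD proteins, were all measured. For the lung step (JC-M3 against JC-P) 1 of the 7 was at least 2-fold higher (3.82% of measured features), Junb at 90.9, 72.6 and 147 TPM. Fosl1 stood at 272, 216 and 264 TPM and Jun at 173, 179 and 201 TPM, while Fos stood at 0.95, 1.62 and 3.66 TPM. Among further reported YAP targets, the EGF receptor ligand gene Areg stood at 11.5, 10.3 and 5.04 TPM. Thbs1, a matricellular gene, stood at 605, 711 and 491 TPM, so it was highest in JC-P, the library where Ccn1 was lowest.

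Over 8755 genes averaging 10 TPM or more, the patterns most like those of Ccn1, Ccn2 and Ankrd1 were sought by the distance between the pairs of log2 ratios (fat pad step and lung step), which rests on 3 libraries. For Ccn1 1 gene lay within 0.25, Ltbp2, which encodes a latent TGF-beta binding protein, at 35.9, 14.4 and 88.9 TPM and a distance of 0.078. The next were Krt80 at 0.32 and Ecscr at 0.58. For Ccn2 67 genes lay within 0.25, the nearest being Mast2, Tpst2 and Fbxo5, and for Ankrd1 234 did, the nearest being Gsdmd, Usp1 and Tcf20.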
